A study of Schizosaccharomyces pombe with 6 samples.

Results

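The genes described here encode 9 heterochromatin silencing factors of the fission yeast *S. pombe*, which were *clr1*+, *clr2*+, *clr3*+, *clr4*+, *swi6*+, *chp1*+, *chp2*+, *rik1*+ and *raf2*+. They were chosen by name from the 5184 genes in the deposited table, with earlier results of these data known. All 9 were among the 4969 genes tested. The RNA-seq of *htb1-K119R* served to ask whether the altered expression seen in other *htb1* mutants goes with the level of monoubiquitinated histone H2B (H2Bub), and it compared 3 WT libraries with 3 *htb1-K119R* libraries, described as independent biological repeats of whole cells. In *htb1-K119R*, the only H2B gene, *htb1*+, carries an arginine in place of the lysine that receives ubiquitin, so no H2Bub can form. The strain list of the study gives *htb1-K119R* as an h- *ura4-D18* strain with the mutation tagged by *kanMX6*, and its WT as an h+ *ade6-M216 leu1-32 ura4-D18* strain, although it does not state that this WT was the one sequenced. Effects of the marker and of the other alleles therefore cannot be told apart from those of the histone mutation. Both strains share the *ura4*+ deletion, and *ura4*+ had a count of 0 in all 6 libraries.

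Heterochromatin in fission yeast covers the centromeres, the telomeres and the silent mating-type region, and it is marked by methylation of histone H3 at lysine 9. The CLRC complex places this mark through its methyltransferase Clr4, and the HP1 proteins Swi6 and Chp2 bind it. Swi6 and Chp2 in turn bring in other factors, including the SHREC deacetylase complex that holds Clr1, Clr2 and Clr3, while Chp1 is the chromodomain subunit of the RNA interference complex RITS.

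The expression of 2 of the 9 genes was upregulated in *htb1-K119R*, and these encode the H3K9 methyltransferase (*clr4*+, 1.49-fold) and the major HP1 protein (*swi6*+, 1.40-fold). No member passed the test as lower, and no member changed by more than 2-fold. The libraries of *rik1*+, *chp2*+ and *clr1*+ also lay above WT without overlap, but the differences did not pass the test over all genes. The libraries of *raf2*+, *clr2*+, *clr3*+ and *chp1*+ overlapped between the genotypes. The test was edgeR's quasi-likelihood test on counts, with Benjamini-Hochberg adjustment over the 4969 genes and a threshold of 0.05. By the same rule 18.6% of all genes tested were higher in *htb1-K119R* and 19.3% were lower, and with the added condition of more than 2-fold change these shares were 4.71% and 3.64%. Before adjustment 3 members had a *P* below 0.05 as higher (*clr4*+, *swi6*+ and *clr1*+) and 0 as lower. DESeq2 gave the same counts of 2 higher and 0 lower members at its adjusted threshold.

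In total 5 of 9 members had all 3 *htb1-K119R* libraries above all 3 WT libraries, where 25% of all genes tested did, and 0 of 9 had them all below, where 23.9% of all genes did. The median log2 fold change of the 9 members was 0.39, against -0.01 over all genes tested. Levels between libraries are given in TMM-normalized CPM, that is counts relative to the library total after scaling for library composition, and levels between genes in FPKM, which is per length of transcript. In RNA from a whole culture, a change in RNA per cell and a change in the mix of cells cannot be told apart.

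**Figure D1:**
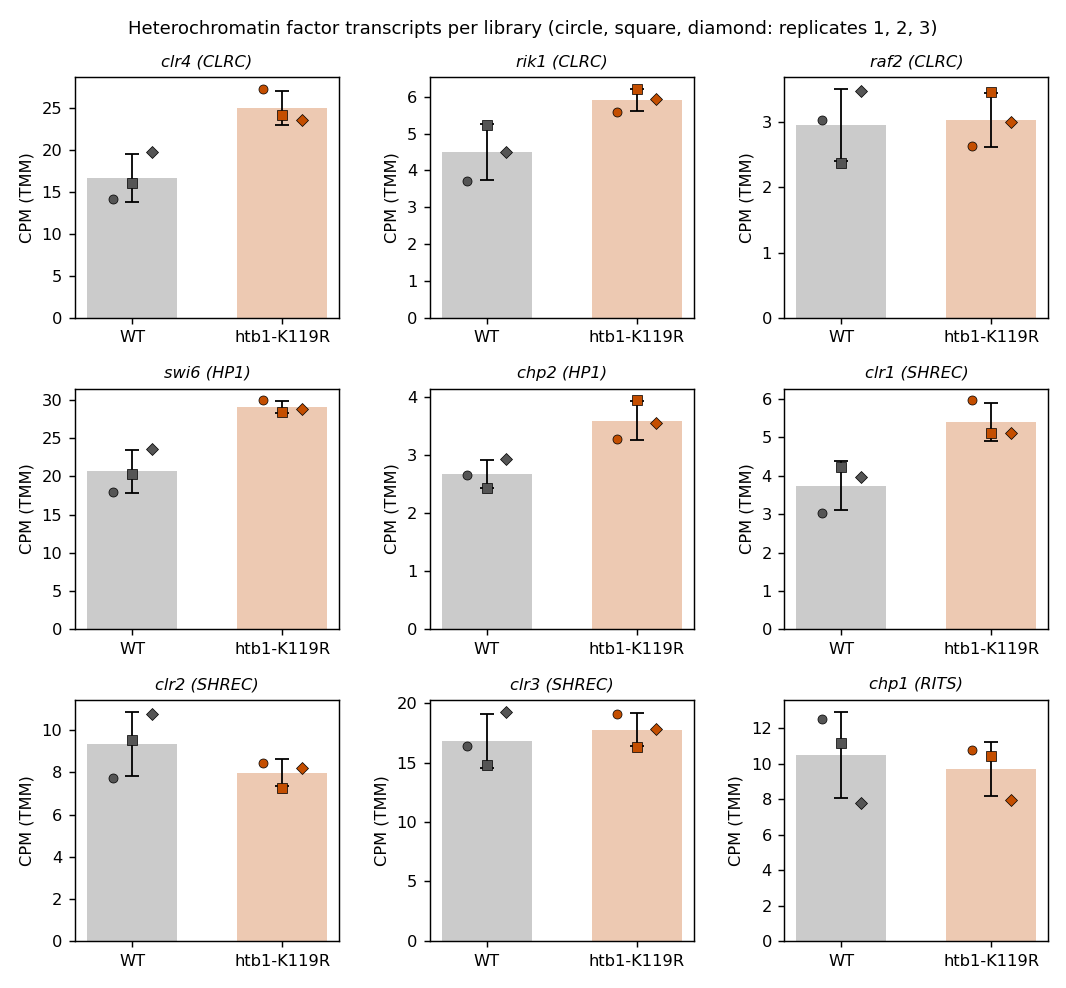
TMM-normalized CPM of the 9 heterochromatin factor genes in each library; bars are means, error bars are SDs of 3 libraries, and the circle, square and diamond are replicates 1, 2 and 3 of each genotype. The *clr4*+ and *swi6*+ libraries of *htb1-K119R* sit above every WT library, whereas those of *raf2*+, *clr2*+, *clr3*+ and *chp1*+ overlap with WT.

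Among the CLRC genes, *clr4*+ (SPBC428.08c, chromosome II), the sole H3K9 methyltransferase gene of fission yeast, was at 14.1, 16.1 and 19.7 CPM in WT replicates 1, 2 and 3 and at 27.3, 24.1 and 23.5 CPM in *htb1-K119R* replicates 1, 2 and 3. These values rest on 186, 224 and 478 counts in WT and 580, 439 and 455 counts in *htb1-K119R*. All 3 mutant libraries were above the highest WT library, replicate 3. The mean rose from 16.6 ± 2.85 to 25.0 ± 2.02 CPM (SD, n = 3), a log2 fold change of 0.58 (SE 0.144; edgeR adjusted *P* = 0.0105).

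The gene *rik1*+ (SPCC11E10.08, chromosome III) encodes the beta-propeller scaffold of CLRC, a protein related to the DNA repair factor Ddb1. It was at 3.72, 5.24 and 4.50 CPM in WT and at 5.59, 6.20 and 5.94 CPM in *htb1-K119R*. The lowest mutant library was only slightly above the highest WT library, and the log2 fold change of 0.39 (SE 0.188) did not pass the test (adjusted *P* = 0.12, edgeR). The zinc finger subunit gene *raf2*+ (SPCC970.07c, chromosome III) was at 3.04, 2.37 and 3.47 CPM in WT and at 2.63, 3.46 and 2.995 CPM in *htb1-K119R*. Its libraries interleaved, with a log2 fold change of 0.01 (SE 0.234; edgeR adjusted *P* = 0.965).

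Both HP1 genes had higher values in every mutant library. The gene *swi6*+ (SPAC664.01c, chromosome I) encodes the more abundant HP1 protein, which spreads along H3K9-methylated chromatin and also recruits cohesin to centromeres. It was at 18.0, 20.3 and 23.6 CPM in WT (237, 283 and 571 counts) and at 29.9, 28.4 and 28.8 CPM in *htb1-K119R* (637, 517 and 558 counts). The 3 mutant libraries were close together and all above WT, and the log2 fold change of 0.49 passed the test (SE 0.125; edgeR adjusted *P* = 0.0117).

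The second HP1 gene *chp2*+ (SPBC16C6.10, chromosome II) encodes the chromodomain protein that links H3K9 methylation to SHREC. It was at 2.66, 2.44 and 2.93 CPM in WT and at 3.29, 3.95 and 3.56 CPM in *htb1-K119R*. The genotypes did not overlap, but with 34 to 72 counts per library the log2 fold change of 0.42 had an SE of 0.21 and did not pass the test (adjusted *P* = 0.14, edgeR).

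None of the 3 SHREC genes passed the test. The gene *clr1*+ (SPBC2D10.17, chromosome II), which encodes the zinc finger scaffold of the complex, was at 3.04, 4.24 and 3.96 CPM in WT and at 5.97, 5.11 and 5.11 CPM in *htb1-K119R*. Its libraries did not overlap, and its log2 fold change of 0.52 (SE 0.198) narrowly missed the threshold (adjusted *P* = 0.0606, edgeR). Without WT replicate 3 it passed, with 0.57 (adjusted *P* = 0.0425, edgeR).

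The gene *clr2*+ (SPAC1B3.17, chromosome I), which encodes another SHREC subunit, was at 7.74, 9.55 and 10.8 CPM in WT and at 8.46, 7.25 and 8.21 CPM in *htb1-K119R*. It was one of only 2 members with a fold change below 0 in this fit, at -0.24 on the log2 scale (SE 0.168; edgeR adjusted *P* = 0.284). The gene *clr3*+ (SPBC800.03, chromosome II), which encodes the catalytic deacetylase for histone H3 lysine 14, was at 16.4, 14.8 and 19.3 CPM in WT and at 19.1, 16.3 and 17.9 CPM in *htb1-K119R*. The genotypes overlapped almost fully, and the log2 fold change was 0.07 (SE 0.138; edgeR adjusted *P* = 0.708).

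The RITS gene *chp1*+ (SPAC18G6.02c, chromosome I) was at 12.5, 11.2 and 7.80 CPM in WT and at 10.8, 10.4 and 7.95 CPM in *htb1-K119R*. Replicate 3 was the lowest in both genotypes, and the log2 fold change was -0.10 (SE 0.201; edgeR adjusted *P* = 0.729). In WT, replicate 3 was the highest library for 6 of the 9 members and the lowest for 1, which was *chp1*+. Across all genes the mean absolute log2 difference of WT replicate 3 from WT replicates 1 and 2 was 0.402 and 0.336, whereas replicates 1 and 2 differed by 0.2.

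The calls of *clr4*+ and *swi6*+ were close to the threshold when *htb1-K119R* replicate 1 was left out. Without it the log2 fold change of *clr4*+ was 0.51 (adjusted *P* = 0.0555, edgeR) and that of *swi6*+ was 0.47 (adjusted *P* = 0.052, edgeR), so that 0 of 9 members were called. Without WT replicate 3, which differed most from the other WT libraries, they were 0.72 (adjusted *P* = 9.2e-05, edgeR) and 0.60 (adjusted *P* = 0.00025, edgeR), and 3 of 9 members were called. The WT libraries kept in that fit, replicates 1 and 2, had the lowest TMM factors of the 6 libraries, 0.824 and 0.863. In each of the other 4 fits with 1 library left out, both genes stayed past the threshold, though not far from it. The adjusted *P* (edgeR) was 0.0284 to 0.0440 for *clr4*+ and 0.0330 to 0.0472 for *swi6*+.

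Gene length moved with the genotype comparison over all genes, and the members are long genes on the whole. With the tested genes split into 5 classes of equal size by exon length, the median log2 fold change was -0.28 in the shortest class and 0.29 in the longest, and 8.55% and 34.6% of these genes were called higher. The longest class held *clr4*+ (4415 bp), *clr1*+ (4046 bp), *rik1*+ (4031 bp) and *chp1*+ (3536 bp), and the shortest class held no member. The trend differed between libraries of 1 genotype as well. The median log2 deviation of the longest class from the mean of the 6 libraries was -0.27, -0.21 and 0.02 in WT replicates 1, 2 and 3, and 0.22, 0.06 and 0.15 in *htb1-K119R*.

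Offsets for length and GC content were then added to the edgeR fit. The methyltransferase gene *clr4*+ was at 0.17 on the log2 scale and no longer passed (adjusted *P* = 0.254, edgeR), and the similarly long *clr1*+ and *rik1*+ were at 0.17 and 0.11. The fourth member of the longest class, *chp1*+, went from -0.10 to -0.39 (adjusted *P* = 0.248, edgeR). The HP1 gene *swi6*+ (1693 bp) kept its value, at 0.51, and its call (adjusted *P* = 0.00303, edgeR). The shortest member, *chp2*+ (1213 bp), passed in this fit at 0.59 (adjusted *P* = 0.0334, edgeR), and *clr2*+ passed as lower at -0.37 (adjusted *P* = 0.048, edgeR). The median of the 9 members was 0.11 with these offsets, so that the counts became 2 higher and 1 lower.

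**Figure D2:**
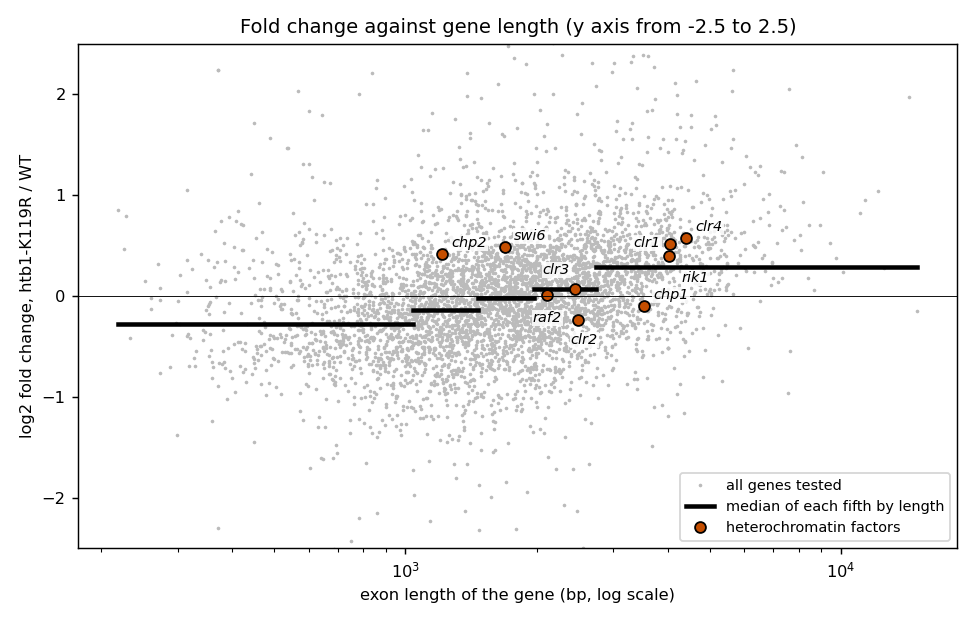
Log2 fold change (*htb1-K119R* over WT) of each gene tested against its exon length in bp on a log scale; black lines are medians of the 5 length classes, orange points are the heterochromatin factors, and 47 genes lie outside the plotted range. The class medians climb from -0.28 to 0.29, with *clr4*+, *clr1*+ and *rik1*+ in the longest class and *swi6*+ and *chp2*+ well above the medians of their shorter classes.

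The scale between libraries mattered as well. When libraries were scaled by their totals alone, the median log2 fold change of all genes moved up by 0.16, and the calls went from 924 higher and 958 lower genes to 815 higher and 403 lower. On that scale *clr4*+ was at 0.71 (adjusted *P* = 0.0834, edgeR) and *swi6*+ at 0.63 (adjusted *P* = 0.0895, edgeR), larger values with larger SEs, and 0 of 9 members were called. limma on log2(FPKM + 1), where the median of all genes also moved up by 0.16, likewise called 0 of 9, with *clr4*+ at 0.62 (adjusted *P* = 0.0797) and *swi6*+ at 0.63 (adjusted *P* = 0.0556). In FPKM, *clr4*+ and *swi6*+ were still higher in all 3 mutant libraries than in any WT library.

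**Figure D3:**
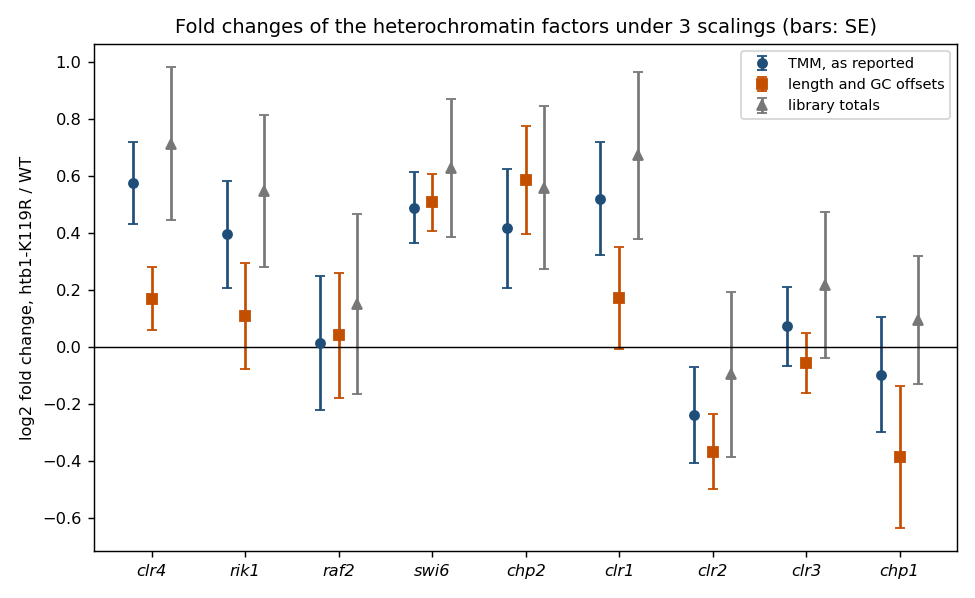
Log2 fold change (*htb1-K119R* over WT, y axis) of the 9 genes with TMM scaling (circles), with length and GC offsets (squares) and with library totals (triangles); bars are SEs of the edgeR fit. *swi6*+ stays near 0.5 in the first 2 fits, whereas *clr4*+ goes from 0.58 to 0.17.

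Set side by side per length, the 9 transcripts covered more than a 10-fold range. In WT the HP1 gene *swi6*+ was the most abundant at 11.98 ± 4.03 FPKM (SD, n = 3), followed by the deacetylase gene *clr3*+ at 6.71 ± 2.25, *clr2*+ at 3.70 ± 1.30, *clr4*+ at 3.61 ± 1.36 and *chp1*+ at 2.52 ± 0.155 FPKM. The lowest were *chp2*+ at 1.496 ± 0.431, *raf2*+ at 1.34 ± 0.494, *rik1*+ at 1.02 ± 0.268 and *clr1*+ at 0.887 ± 0.263 FPKM. Only 2 of the 8 steps in this order separated all libraries of the upper gene from all libraries of the next, namely *clr3*+ over *clr2*+ and *chp1*+ over *chp2*+. By mean FPKM over the 6 libraries, *swi6*+ ranked above 56.0% of the listed genes and *clr1*+ above 9.16%.

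In *htb1-K119R* the order was the same apart from *clr4*+, which at 5.93 ± 0.797 FPKM stood above *clr2*+ at 3.47 ± 0.460 FPKM with no overlap of their libraries. *swi6*+ reached 18.6 ± 1.57 FPKM and was separate from *clr3*+ at 7.82 ± 1.05 FPKM. *chp2*+ at 2.22 ± 0.0835 FPKM was separate from *raf2*+ at 1.5 ± 0.122 FPKM, and *raf2*+, *rik1*+ (1.49 ± 0.0112 FPKM) and *clr1*+ (1.42 ± 0.210 FPKM) overlapped at the low end. Exact ranks among such close neighbours depend on the length used, and with CPM per kb of exon 35 of the 36 pairs of members in WT and 34 of 36 in *htb1-K119R* kept their order. The pair that changed in WT was *clr4*+ and *clr2*+, at 3.77 and 3.76 CPM per kb, so on that scale *clr4*+ was already above *clr2*+ in WT.

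**Figure D4:**
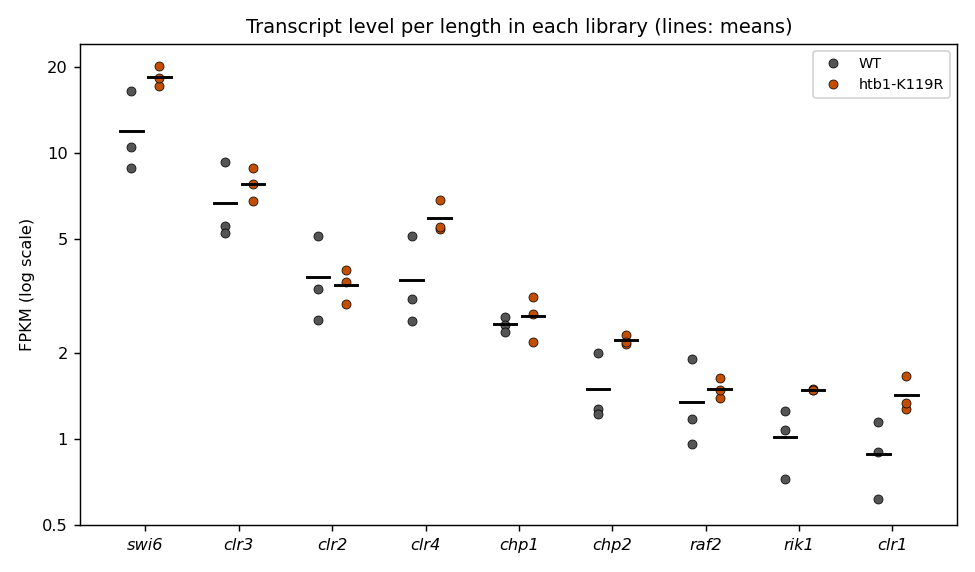
FPKM of the 9 genes in each library on a log scale, ordered by the WT mean; points are libraries and lines are means of 3 libraries. *swi6*+ lies at the top in both genotypes, and *clr4*+ moves from beside *clr2*+ in WT to above it in *htb1-K119R*.

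Ratios between partner genes within a library do not depend on the scale between libraries, but they pair genes of different length and so are not free of the length trend. With the length and GC offsets *clr4*+ (0.17) and *chp2*+ (0.59) stood below and above *swi6*+ (0.51) on the log2 scale, the opposite of the order without them. The ratio of *clr4*+ to *swi6*+ in FPKM was 0.291, 0.294 and 0.311 in the WT libraries, against 0.338, 0.316 and 0.303 in the mutant, so the genotypes overlapped, with a log2 difference of 0.09 (two-sided exact permutation *P* = 0.2). The ratio of *chp2*+ to *swi6*+, the second HP1 transcript against the first, was 0.127 ± 0.0144 in WT and 0.120 ± 0.0142 in *htb1-K119R* (SD, n = 3, exact permutation *P* = 0.6). For the SHREC genes *clr3*+ and *clr1*+, the ratio was 9.03, 5.84 and 8.14 in the WT libraries, against 5.35, 5.34 and 5.85 in the mutant. The difference of the log2 means was -0.45, and the libraries overlapped only at 5.84 in WT and 5.85 in the mutant (exact permutation *P* = 0.2).

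The ratio of *raf2*+ to *rik1*+ was 1.34 ± 0.396 in WT and 1.01 ± 0.0888 in *htb1-K119R* (exact permutation *P* = 0.4, n = 3). For *epe1*+, which encodes the JmjC protein that Swi6 recruits and that counteracts heterochromatin, the ratio to *swi6*+ was 0.341 ± 0.0859 in WT and 0.372 ± 0.0460 in *htb1-K119R* (exact permutation *P* = 0.8, n = 3). None of the 5 ratios separated the genotypes, and the smallest *P* that 3 against 3 libraries allow is 0.1. After adjustment over the 5 ratios the lowest exact *P* was 0.5.

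Reads from overlapping genes bear on these counts, since whether the counting used strand is not given in the sources used here. In the ASM294v3 annotation, genes on the other strand cover 89.6% of the exon length of *clr4*+, and *meu6*+ alone, the one listed in the table, covers 54.2%. *meu6*+ itself had at most 19 counts in a library, against 186 or more for *clr4*+, but these counts do not show how reads in the overlap were assigned. For *rik1*+, the listed gene SPCC11E10.09C alone covers 91.9%. Other-strand genes cover all or nearly all of *rik1*+ and *clr3*+ and 72.3% of *chp2*+, so the values of these genes are less certain. Neither *swi6*+ nor *clr2*+ overlaps an annotated gene on the other strand.

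Around the 9 members, 25 other genes of the silencing pathway were listed, and 24 of them were tested. The expression of 7 was upregulated and that of 1 was downregulated in *htb1-K119R*, while 16 did not pass, beside 18.6% of all genes tested that were higher and 19.3% that were lower, and the median log2 fold change was 0.27. Of the 24 genes, 10 had all mutant libraries above WT and 1 had them all below, where 25% and 23.9% of all genes did. The largest increases were in *lid2*+ and *abo1*+, the only 2 past 2-fold (4.71% of all genes tested).

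The histone demethylase gene *lid2*+, which encodes a JmjC protein acting on methylated H3K4, was at 19.8, 17.5 and 16.3 CPM in WT and at 43.8, 46.7 and 46.0 CPM in *htb1-K119R*. It rose 2.55-fold (a log2 change of 1.35 with an SE of 0.113, adjusted *P* = 1.5e-05 by edgeR), with every mutant library more than 2-fold above every WT library. The AAA ATPase gene *abo1*+, whose product acts on nucleosomes and is needed for heterochromatin to be kept, was at 9.79, 10.1 and 13.4 CPM in WT and at 25.6, 25.1 and 26.5 CPM in *htb1-K119R*. It rose 2.30-fold (a log2 change of 1.20 with an SE of 0.144, adjusted *P* = 0.00015 by edgeR). Both are long genes (4604 and 4835 bp), and with length and GC offsets they still passed the test but at 0.92 and 0.75 on the log2 scale.

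Among factors that oppose heterochromatin, *epe1*+ rose from 16.9, 18.8 and 13.6 CPM to 24.4, 28.8 and 24.1 CPM (a log2 change of 0.65 with an SE of 0.146, adjusted *P* = 0.0059 by edgeR). The H3K14 acetyltransferase gene *mst2*+ rose by 0.46 (SE 0.123; edgeR adjusted *P* = 0.0148), whereas the bromodomain gene *bdf2*+, which encodes a partner of Epe1 at heterochromatin borders, fell by 0.33 on the log2 scale (SE 0.0956; edgeR adjusted *P* = 0.0201). With length and GC offsets *epe1*+ (0.31) and *mst2*+ (0.19) no longer passed, while *bdf2*+ did at -0.56. Of the 6 fits with 1 library left out, the call held in 4 for *mst2*+ and in 3 for *bdf2*+. Neither held with library totals or in the limma fits. On the other strand *sec3*+ alone, a listed gene, covers 100% of *mst2*+. Other-strand genes cover 72.0% of *epe1*+ and 34.6% of *bdf2*+.

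Of the recruitment genes, *clr5*+, which encodes a DNA-binding protein needed for silencing of the mating-type region, rose from 273, 271 and 245 CPM to 441, 452 and 460 CPM (a log2 change of 0.78 with an SE of 0.113, adjusted *P* = 0.00047 by edgeR). It was called under each of the 17 alternatives, as were *lid2*+ and *abo1*+. None of these alternatives changes how reads were counted by strand. Other-strand genes cover 70.3% of *clr5*+, 42.4% of *lid2*+ and 14.1% of *abo1*+. The telomere-binding factor gene *taz1*+ rose by 0.48 (SE 0.164; edgeR adjusted *P* = 0.0394), a call that held in only 2 of the 6 fits with 1 library left out.

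The following partners of the members did not pass. *mit1*+, which encodes the remodeler subunit of SHREC, was at 0.50 (adjusted *P* = 0.105, edgeR), *pcu4*+, which encodes the cullin of CLRC, at 0.28 (adjusted *P* = 0.339, edgeR), and the RITS genes *ago1*+ and *tas3*+ at 0.34 and -0.24 on the log2 scale. *stc1*+, which encodes the link between RITS and CLRC, was the listed gene with too few counts to be tested, with 9, 0 and 44 counts in WT and 2, 5 and 3 counts in *htb1-K119R*.

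**Figure D5:**
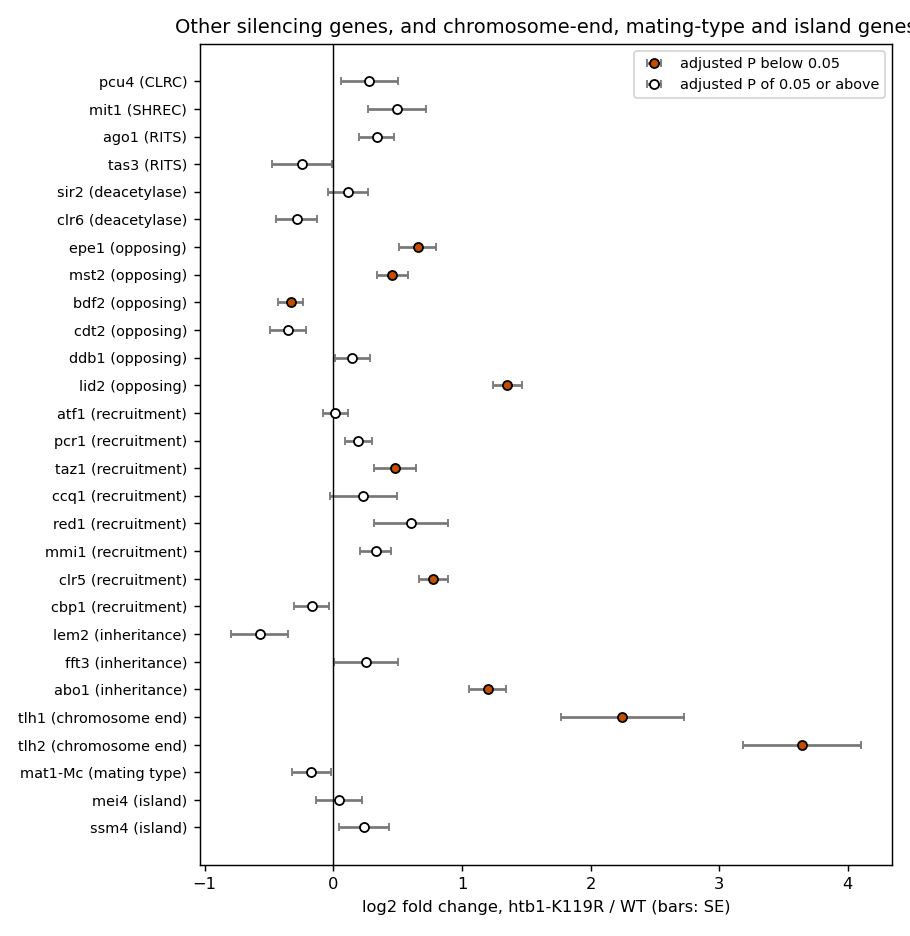
Log2 fold change (*htb1-K119R* over WT, x axis) of 23 of the other silencing genes and of chromosome-end, mating-type and island genes, with SEs of the edgeR fit as bars; filled points have an adjusted *P* below 0.05. *lid2*+ and *abo1*+ lead the silencing genes, at 1.35 and 1.20, and *tlh1*+ and *tlh2*+ lie farther out at 2.25 and 3.64.

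Genes known to lie under heterochromatin were listed as targets of these factors, with the mating-type cassette genes of the table. Of 8 such genes 5 were tested and 2 were called, both as higher and by more than 2-fold. By the same rules 18.6% of all genes tested were higher, and 4.71% were higher by more than 2-fold. Without the *mat1* genes, which belong to the expressed cassette and are not silenced, 6 were listed, 4 tested and the same 2 called. The telomere-linked helicase genes *tlh1*+ and *tlh2*+, which lie next to the chromosome ends, were upregulated from a very low level. *tlh1*+ had 10, 8 and 4 counts in WT and 33, 37 and 56 counts in *htb1-K119R* (a log2 change of 2.25 with an SE of 0.479, adjusted *P* = 0.0047 by edgeR). *tlh2*+ had 7, 0 and 16 counts in WT and 110, 116 and 98 counts in *htb1-K119R* (a log2 change of 3.64 with an SE of 0.46, adjusted *P* = 2e-04 by edgeR). Both genes passed the low-count filter through their mutant libraries, so a call as lower was hardly possible. The fit that required 10 counts in every library left both out. The pair are near-identical copies, so how their reads were split between them is uncertain, and they were higher in every mutant library. At 5662 and 6015 bp they are also long genes. With length and GC offsets *tlh1*+ and *tlh2*+ still passed the test, at 1.78 and 3.12 on the log2 scale.

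The meiotic genes *mei4*+ and *ssm4*+, which sit in heterochromatin islands, did not pass the test. *mei4*+ was at 5.85, 4.52 and 5.08 CPM in WT and at 5.41, 5.11 and 5.37 CPM in *htb1-K119R* (a log2 change of 0.04 with an SE of 0.178, adjusted *P* = 0.87 by edgeR), and *ssm4*+ at 0.24 on the log2 scale (adjusted *P* = 0.349, edgeR). Of the mating-type cassette genes, *mat1-Mc* was at 18.5, 13.1 and 14.6 CPM in WT and at 14.1, 13.8 and 13.01 CPM in *htb1-K119R*, while *mat1-Mi*, *mat3-Mc* and *mat3-Mm* had 0 counts in all 6 libraries. The cassette copies share their sequence, and how reads shared between them were counted is not given in the sources used here.

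Of 7 marker genes of the mating types, 5 were tested and 1 passed. This was the P-factor gene *map2*+ of P cells, which rose in the mutant (a log2 change of 1.13 with an SE of 0.213, adjusted *P* = 0.0024 by edgeR). The strain list gives the mutant as h-, the type of M cells, so this rise runs opposite to the list. The other P-cell gene, *map3*+, was below WT in every mutant library, at 7.14, 7.18 and 7.93 CPM in WT and 6.91, 5.11 and 6.97 CPM in the mutant, but did not pass (-0.23, adjusted *P* = 0.329, edgeR). On the other strand *his6*+ covers 99.8% of *map3*+, so its values are less certain. Of the M-cell genes, *mfm2*+, *mam1*+ and *mam2*+ were at 0.36, 0.60 and 0.03 on the log2 scale with overlapping libraries, and *mfm1*+ and *mfm3*+ had 24 counts or fewer in every library and were not tested. The mutated gene itself, *htb1*+, lay between 1360 and 1854 CPM in WT and between 1346 and 1456 CPM in the mutant (a log2 change of -0.26, adjusted *P* = 0.26 by edgeR), a level that does not check the substitution. The M-cell cassette gene *mat1-Mc* was at -0.17 on the log2 scale and did not pass either (adjusted *P* = 0.39, edgeR). No mating-type marker passed in the direction of the strain list, and the part of mating type in the members' values was not tested.

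The genes whose pattern over the 6 libraries was most like that of *clr4*+, the member with the largest called change, were sought among 2864 genes of similar level. By Pearson's r of log2 CPM these were *cid13*+ (r = 0.997), which encodes a poly(A) polymerase, *ebs1*+ (r = 0.995) and *mcm5*+ (r = 0.992), which encodes a subunit of the replicative helicase. Their log2 fold changes were 0.59, 0.56 and 0.53, beside 0.58 for *clr4*+, a likeness that the choice by r over both genotypes favours. The correlations describe 6 libraries whose differences bear on many genes at once, and unequally by gene length, and the 3 genes were picked as the highest of many.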

How the data were processed

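RNA-seq of 3 WT and 3 *htb1-K119R* libraries was analyzed, grouped by the genotype in the labels. After Trizol extraction and oligo(dT) selection of mRNA, the authors sequenced on an Illumina platform, discarded rRNA reads and aligned with HISAT2 against Ensembl release 45. The deposited counts are raw whole numbers. The deposited FPKM values are per gene and library and were made by the authors with StringTie. The submitters' processing notes also name fastp, Bowtie2, RSEM and DESeq2 without their roles, and the tool that counted is not given in the sources used here. The deposited means, fold changes, p-values and FDR of the authors' own comparison, and their table of genes past thresholds, were not used.

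Library totals lay between 15987167 and 20701391 counts, with 33 to 637 counts per member and library, so that SEs of the members' log2 fold changes were 0.125 to 0.234. TMM factors were 0.824 and 0.863 in WT replicates 1 and 2 and 1.01 to 1.17 in the others. The chi-square per gene between replicates was 8.37 to 80.9 (1 for counting error alone), so no 2 libraries agreed within sampling noise.

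The fit across all genes used edgeR 4.0.16 in R 4.3.3 (TMM, filterByExpr, genotype as the only factor, quasi-likelihood test, Benjamini-Hochberg over 4969 genes). SEs are those implied by the F statistic. Genes with an adjusted *P* below 0.05 were called, and those with more than 2-fold change were counted apart. The fits were tested on simulated data. FPKM ratios were compared by exact permutation tests (scipy 1.17.1). Lengths, GC content, chromosomes and other-strand overlaps come from ASM294v3 by gene ID, which matched 5109 of 5184 IDs. No coordinates or sequences are given, since the table holds none and its build could not be compared with ASM294v3.

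The members and lists were chosen with earlier results of these data known. Genes named were the 9 members, *epe1*+, *htb1*+, up to 8 other silencing genes with the largest change among those called, all listed silenced genes, and the 3 genes most like the called member of largest change (mean CPM within 4-fold). Other partners of the members' complexes, overlapping genes and markers were named beside these. A further listed gene is counted in the totals but not reported here. Of the genes that share the name abp1, the CENP-B homolog (*cbp1*+) was used. Alternatives were DESeq2 1.42.0, RLE factors, library totals, 2 other low-count filters (none, or 10 counts in every library), a block for replicate number, lowess offsets on length and GC content (span 0.3) with and without the block, limma 3.58.1 on log2(FPKM + 1) and log2(FPKM + 0.1) with a mean FPKM minimum of 1 or without it, a threshold of 0.01, and leaving out each library in turn.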

Additional observations from a re-analysis of the deposited data

How the results depend on the processing

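The count of 2 higher heterochromatin factors stood under DESeq2, RLE factors and both low-count filters. It was 0 with library totals, in all 3 limma fits and at an adjusted *P* below 0.01, and 1 with length and GC offsets plus the replicate block. With the offsets alone it was 2, and 1 member was called lower where 0 had been. When each library was left out, it ranged from 0 to 3. The counts of other silencing genes called lower, 1 as reported, were 2 with DESeq2, 0 with library totals and in the limma fits, and 3 with the offsets with or without the block, and those higher by more than 2-fold went from 2 to 0 with the offsets. When each library was left out, the other silencing genes gave 4 to 11 higher and 0 to 2 lower calls, with 0 to 1 lower by more than 2-fold. Over all genes the 958 lower calls became 403 with library totals and 407 to 449 in the limma fits, and the 181 lower by more than 2-fold became 108 and 64 to 105. Leaving out each library gave 577 to 1319 higher and 570 to 1375 lower genes. The replicate numbers were not treated as pairs in the main fit. The correlations of deviations between genotypes were -0.23, 0.356 and 0.298 for the same number and -0.512 to 0.371 for different numbers. With 3 libraries per genotype these values cannot settle whether the samples were paired. With the number as a block in edgeR, the heterochromatin factors gave 2 calls (*clr4*+ 0.58, *swi6*+ 0.50) and the other silencing genes 10 higher and 2 lower. Small log2 values changed sign, none of them past the threshold. With the offsets, alone and with the block, *clr3*+ was at -0.0578 and -0.0539, *ddb1*+ at -0.11 in both, *atf1*+ at -0.19 in both, *mei4*+ at -0.0195 and -0.0205, and *fft3*+ at -0.0226 with the offsets alone. *chp1*+ was at 0.0947 with library totals and at 0.0604, 0.0772 and 0.0604 in the limma fits, and *cbp1*+ at 0.00038 with limma on log2(FPKM + 0.1). When each library was left out, the log2 ranges were -0.12 to 0.16 for *raf2*+, -0.0122 to 0.188 for *clr3*+, -0.287 to 0.0489 for *chp1*+, -0.00227 to 0.212 for *sir2*+, -0.0414 to 0.0604 for *atf1*+ and -0.0372 to 0.133 for *mei4*+. The log2 difference in the *chp2*+ to *swi6*+ ratio ranged from -0.159 to 0.0172 and that of *epe1*+ to *swi6*+ from -0.0775 to 0.274. Of 36 pairs of levels, 35 in WT and 34 in *htb1-K119R* kept their order with CPM per kb. Where no value above shows it, the cause was not tested. The SE was 0.234 for *raf2*+ with 33 to 84 counts per library and 0.201 for *chp1*+ with 154 to 229.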
